A study of Mus musculus with 4 samples.

Results

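Gamma-delta T cells were taken from single-cell RNA sequencing of the injured brain hemisphere after ischemic stroke in wild-type mice. A cell counted as a gamma-delta T cell when it held at least 1 UMI (unique molecular identifier, 1 captured transcript) of Trdc, the constant segment of the receptor delta chain, and at least 2 UMIs of Cd3e, Cd3d and Cd3g together. It had to hold none of Cd8a, Cd8b1, Foxp3 and Ncr1, and at most 2 UMIs over 6 microglial genes (P2ry12, Tmem119, P2ry13, Gpr34, Olfml3 and Fcrls). The rule found 506 gamma-delta T cells among the 55902 cells kept. Cells were kept from 500 UMIs and 300 detected genes upward, with no more than 20% of UMIs from mitochondrial genes. Il17a, the gene of the cytokine IL-17A, was detected in 344 of the 506.

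All mice had a stroke, had hydrogel microspheres placed in the infarct cavity on day 5, and gave the ipsilateral hemisphere on day 14. In 3 groups the microspheres carried extracellular vesicles (EV) derived, per the series' design text, from reactive astrocytes. These groups are labelled IL-4 C1q EV+MAPS (called here the IL-4 library), IL-1a TNFa C1q EV+MAPS (the IL-1a library) and UT EV+MAPS (the UT library). The fourth, labelled MAPS (the MAPS library), is the implant that all 4 share, with no EV named in its label. The labels do not expand MAPS or UT, and give neither the age nor the sex of the mice nor how many were pooled. Each group is 1 library made with a 10x Genomics 3′ version 3 kit, so a difference between libraries has no replicate check, and intervals on it cover counting error only. Healthy animals were not analysed here.

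T cells carry either an alpha-beta or a gamma-delta receptor, and the gamma-delta kind is a small share of blood and lymph node T cells but common at barriers and in the meninges. In mice, a branch of them is set in the fetal thymus to make IL-17A and answers to IL-23 and IL-1 without a peptide on MHC. The transcription factors of this branch include Sox13. Gamma-delta T cells are known as an early source of IL-17A in the mouse brain after stroke. Another branch makes interferon-gamma and carries genes of cytotoxic cells.

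The libraries held between 45691141 and 81189155 UMIs in all. The MAPS library stood apart: its kept cells had a median of 4557 UMIs, against 2480 (IL-4), 2608 (IL-1a) and 2673.5 (UT), and a median mitochondrial share of 1.42%, against 0.55% to 0.575% in the EV libraries. The lowest cell of the IL-1a library held 1233 UMIs, whereas the other 3 started at 500. Gamma-delta T cells were shallow in every library, with medians of 1913.5 UMIs (IL-4), 1738.5 (IL-1a), 1993 (UT) and 3734 (MAPS). Of the barcodes, 324 occurred in more than 1 library, and 4 gamma-delta T cells carried one. The doublet caller scrublet marked 8, 12, 6 and 3 gamma-delta T cells in the IL-4, IL-1a, UT and MAPS libraries; they were kept.

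The cells were chosen by their measured UMIs of Trdc, the Cd3 genes and the excluded genes, so the values of these genes are a description with no test. Trdc itself had a median of 8 UMIs per gamma-delta T cell (IL-4), 6 (IL-1a), 5 (UT) and 9 (MAPS). Just inside the threshold, 28 of the 506 cells held 1 Trdc UMI and 44 held 2, while 7 cells held a Cd3 sum of 2 and 9 a sum of 3. Just outside it, 6 cells with Trdc had a Cd3 sum of 1, another 68 had none, and 105 failed an exclusion (32 by Cd8a or Cd8b1, 19 by Ncr1, 2 by Foxp3 and 62 by the microglial genes, with overlaps). Microglial UMIs were 0 in 460 of the 506 cells. Trdc was also read in 0.0882% to 0.249% of microglia, cells that should lack it, whose median depth was 2662.5 to 4719 UMIs. Natural killer cells, taken as cells with Ncr1 and no Cd3 UMI, held it far more often. Trdc was read in 10.2% (IL-4), 4.65% (IL-1a), 16.4% (UT) and 19.2% (MAPS) of them, so Trdc alone does not set gamma-delta T cells apart from these cells.

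The gamma chain is encoded at another locus that the rule did not use, and it was read in most of these cells. At least 1 UMI of a gamma constant gene (Trgc) was present in 115 of 134 gamma-delta T cells (85.8%, 95% Clopper-Pearson interval 78.8 to 91.2) of the IL-4 library. The counts were 172 of 202 (85.1%, 79.5 to 89.8) in the IL-1a library, 130 of 147 (88.4%, 82.1 to 93.1) in the UT library and 22 of 23 (95.7%, 78.0 to 99.9) in the MAPS library. Among T cells with no Trdc UMI that otherwise met the rule (Trdc-negative CD3 cells, 2827 in all), the shares were 6.04% (IL-4), 5.82% (IL-1a), 4.47% (UT) and 1.69% (MAPS). Trac, the alpha chain constant gene, was found in 11.2% (IL-4), 13.4% (IL-1a), 14.3% (UT) and 26.1% (MAPS) of the gamma-delta T cells, and 19 of the 506 held Trac with no Trgc. In Trdc-negative CD3 cells Trac was itself found in only 46.9% (IL-4), 54.3% (IL-1a) and 49.7% (UT), against 91.8% (MAPS). A cell of the EV libraries without a Trac UMI can therefore still express it. Microglia, as a measure of free RNA, had a Trac UMI in 0.113% (IL-4), 0.337% (IL-1a), 0.243% (UT) and 2.51% (MAPS) of cells.

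Among the delta variable segments named Trdv, the one read most often was Trdv4. This segment, which pairs with the gamma segment Trgv6 in fetal-type IL-17 cells of mice, was present in 90 of 134 gamma-delta T cells (67.2%, 58.5 to 75.03) of the IL-4 library. It was present in 105 of 202 (52.0%, 44.9 to 59.0) of the IL-1a library, 90 of 147 (61.2%, 52.9 to 69.1) of the UT library and 7 of 23 (30.4%, 13.2 to 52.9) of the MAPS library. Trdv4 lies on the same transcript as Trdc, so it is not independent of the rule, but its share among the Trdv segments is not set by it. Only 10 of the 506 cells held another Trdv segment, and 206 held none. Delta segments under other names were not counted. Trgv6 was read in 23 (IL-4), 20 (IL-1a), 26 (UT) and 3 (MAPS) cells; variable segments lie far from the 3′ end that this kit reads, so these counts are lower limits.

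Scart1, a scavenger receptor gene that marks Trgv6 cells in mice, was present in 86 of 134 gamma-delta T cells (64.2%) of the IL-4 library, 123 of 202 (60.9%) of the IL-1a library, 88 of 147 (59.9%) of the UT library and 14 of 23 (60.9%) of the MAPS library. In Trdc-negative CD3 cells it was present in 0.55% (IL-4), 0.249% (IL-1a), 0.993% (UT) and 0.422% (MAPS), and in microglia in 0.0441% to 0.07%. Scart2, which marks the Trgv4 branch, was present in 1 (IL-4), 2 (IL-1a), 0 (UT) and 2 (MAPS) cells, 5 of the 506 in all. Trdv4 and Scart1 occurred together in 208 cells, and no cell held Trdv4 and Scart2 together. Scart1 was thus found in 59.9% to 64.2% of gamma-delta T cells in each library, while Trdv4 was found in most of those of the EV libraries but not of the MAPS library.

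Gamma-delta T cells made up 0.935% (95% interval 0.784 to 1.11) of the cells of the IL-4 library, 1.35% (1.17 to 1.55) of the IL-1a library, 1.15% (0.974 to 1.35) of the UT library and 0.166% (0.105 to 0.249) of the MAPS library. By this rule, the 3 EV libraries thus held several times the share of the MAPS library. The ratio was 5.63 (3.597 to 9.18) for the IL-4 library over the MAPS library, 8.11 (5.26 to 13.1) for the IL-1a library and 6.93 (4.44 to 11.3) for the UT library. For Trdc-negative CD3 cells the ratio over the MAPS library was 1.11 (0.982 to 1.26) for the IL-4 library, 2.34 (2.11 to 2.61) for the IL-1a library and 1.38 (1.22 to 1.56) for the UT library. As a share of all CD3 cells, gamma-delta T cells were 13.1% (11.1 to 15.3) in the IL-4 library, 10.4% (9.10 to 11.9) in the IL-1a library, 14.5% (12.4 to 16.8) in the UT library and 1.52% (0.964 to 2.27) in the MAPS library. CD8 cells were 20.8% (IL-4), 14.7% (IL-1a), 14.1% (UT) and 45.1% (MAPS) of the CD3 cells. With Trdc and at least 2 Cd3 UMIs, 20 (IL-4), 37 (IL-1a), 17 (UT) and 31 (MAPS) cells failed an exclusion, against 134, 202, 147 and 23 kept. Of the 31, 20 held Cd8a or Cd8b1. The kept cells held 88.52% (IL-4), 85.68% (IL-1a), 87.65% (UT) and 42.15% (MAPS) of the Trdc UMIs of their library. The part of the exclusions in the ratios over the MAPS library was not tested.

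Among the EV libraries the order depended on the denominator. Over all cells, the IL-4 library held 0.694 (0.553 to 0.867) of the share of the IL-1a library; over CD3 cells, it held 1.26 (1.004 to 1.57) times that share. The ratio of the IL-4 library to the UT library was 0.812 (0.638 to 1.03) over all cells and 0.905 (0.711 to 1.15) over CD3 cells, and both intervals include 1. Thinning every cell to 1000 UMIs before the rule left 0.97% (IL-4), 1.23% (IL-1a), 1.11% (UT) and 0.123% (MAPS). Whether the EV, the depth of the library or the mice set the share of the MAPS library cannot be told apart with 1 library per group.

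Il17a was present in 87 of 134 gamma-delta T cells (64.9%, 56.2 to 73.0) of the IL-4 library, 136 of 202 (67.3%, 60.4 to 73.7) of the IL-1a library, 112 of 147 (76.2%, 68.5 to 82.8) of the UT library and 9 of 23 (39.1%, 19.7 to 61.5) of the MAPS library. The 3 EV libraries overlap in these intervals. As a share of all cells, gamma-delta T cells with Il17a in the IL-4 library were 0.692 (0.517 to 0.924) of those in the UT library and 0.669 (0.505 to 0.882) of those in the IL-1a library. With cells thinned to 1000 UMIs the shares were 58.6% (IL-4), 62.4% (IL-1a), 71.0% (UT) and 39.1% (MAPS). Among Trdc-negative CD3 cells Il17a was present in 15.4% (IL-4), 19.0% (IL-1a), 14.7% (UT) and 0.211% (MAPS, 1 of 474 cells). In microglia, at medians of 2734, 2662.5, 3008 and 4719 UMIs, it was present in 0.0678% (IL-4), 0.494% (IL-1a), 0.176% (UT) and 0.056% (MAPS).

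**Figure D1:**
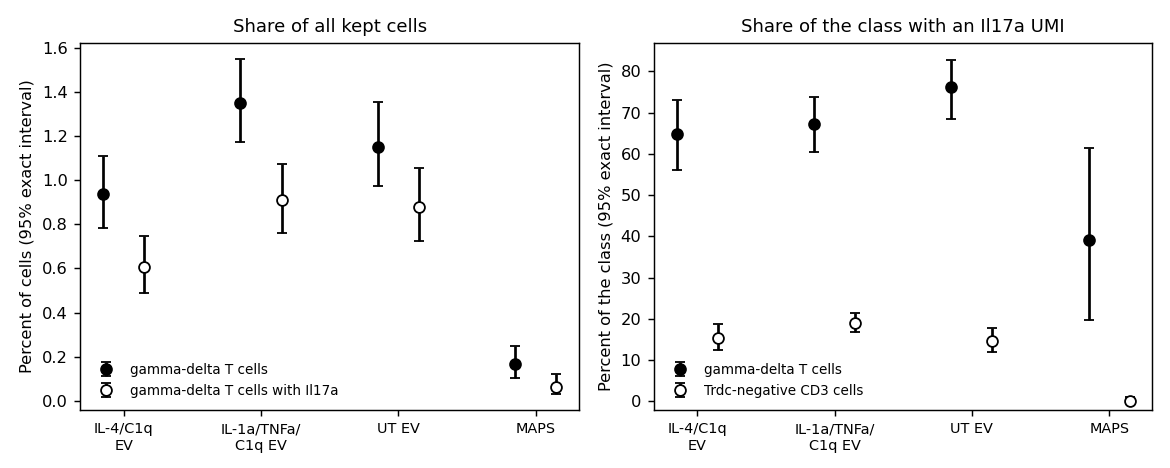
Left, gamma-delta T cells (filled) and those with Il17a (open) as a percentage of all kept cells in each library; right, the percentage of gamma-delta T cells (filled) and of Trdc-negative CD3 cells (open) with an Il17a UMI; bars are 95% exact intervals. The MAPS library lies lowest, at 0.166% of cells, and in every library the filled point at right lies above the open one.

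The amount of Il17a differed more than the share of cells. A gamma-delta T cell with Il17a held a median of 5 Il17a UMIs (range 1 to 94) in the IL-4 library, 11 (1 to 68) in the IL-1a library, 14 (1 to 55) in the UT library and 20 (1 to 50) in the MAPS library. Over all gamma-delta T cells, Il17a stood at 2424 CPM (UMIs of a gene per 1000000 UMIs of the cells summed) in the IL-4 library, 5479 in the IL-1a library, 5684 in the UT library and 1273 in the MAPS library. The IL-4 library thus had 0.427 times (0.392 to 0.464) the Il17a level of the UT library and 0.443 times (0.408 to 0.480) that of the IL-1a library, and without the cell with the most Il17a UMIs in each library 0.386 and 0.400 times. The IL-1a library had 0.964 times (0.908 to 1.02) the level of the UT library. Trdc-negative CD3 cells had another order: 1074 CPM in the IL-4 library, 1557 in the IL-1a library, 822 in the UT library and 0.459 in the MAPS library, with a ratio of 1.31 (1.21 to 1.41) for the IL-4 library over the UT library.

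The Il17a UMIs were spread over many cells: the highest 9 of 87 gamma-delta T cells with Il17a held 39.1% of their Il17a UMIs in the IL-4 library, the highest 14 of 136 held 29.9% in the IL-1a library, the highest 12 of 112 held 28.8% in the UT library, and the highest 1 of 9 held 26.5% in the MAPS library. Of all Il17a UMIs in a library, gamma-delta T cells held 775 of 2286 (33.9%, 32.0 to 35.9) in the IL-4 library and 2413 of 7659 (31.5%) in the IL-1a library. They held 1972 of 3536 (55.8%) in the UT library and 189 of 280 (67.5%) in the MAPS library. Trdc-negative CD3 cells held 59.1% (IL-4), 58.4% (IL-1a), 34.4% (UT) and 0.357% (MAPS). So gamma-delta T cells held most Il17a UMIs in the UT and MAPS libraries, and the other T cells held most in the IL-4 and IL-1a libraries.

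**Figure D2:**
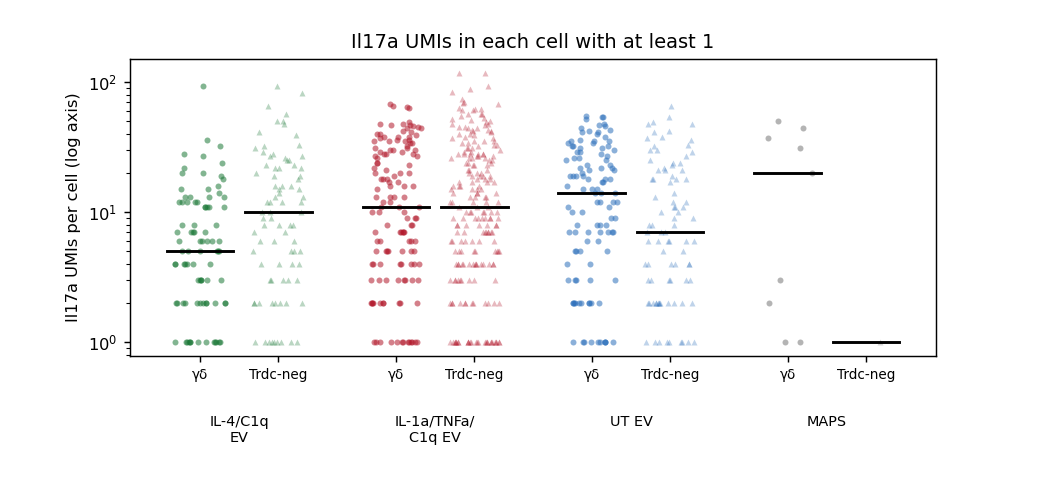
Il17a UMIs per cell on a log axis, 1 point for each gamma-delta T cell (circles) and each Trdc-negative CD3 cell (triangles) with at least 1, with a line at the median. The median of gamma-delta T cells was 5 in the IL-4 library, 11 in the IL-1a library, 14 in the UT library and 20 in the MAPS library, while that of Trdc-negative CD3 cells was 10, 11, 7 and 1.

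Gamma-delta T cells were next set against Trdc-negative CD3 cells of the same library across all genes, to ask what they express beyond the receptor. UMIs were summed per class and library and tested with edgeR's quasi-likelihood test, with the library as a block, so that the 4 libraries serve as replicates of the class difference. Of 8869 genes tested, 219 were higher (2.47%) and 217 lower (2.45%) in gamma-delta T cells at a Benjamini-Hochberg adjusted p under 0.05, 436 in all (4.92%), and 1413 (15.9%) had an unadjusted p under 0.05. Leaving out 1 library left 100 higher and 104 lower without the IL-1a library, 126 and 123 without the IL-4 library, 108 and 105 without the UT library, and 322 and 326 without the MAPS library. Fold changes of this contrast are log2 of gamma-delta over Trdc-negative.

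All 5 tested genes of the gamma chain were higher. Trdv4 was higher as well but lies on the transcript of Trdc, by which the cells were chosen, and is not counted. Trgc1 stood at 992 (IL-4), 1063 (IL-1a), 1055 (UT) and 458 (MAPS) CPM in gamma-delta T cells, against 25.5, 20.9, 19.6 and 3.22 CPM in Trdc-negative CD3 cells of the same libraries. The log2 fold change of Trgc1 was 5.69 ± 0.24 (SE, edgeR adjusted p = 3.63e-08). Trgc4 (4.49), Trgc2 (3.36) and Trgv6 (5.46) followed, with the split between Trgc1 and Trgc2 uncertain because these genes share sequence. Of 5 alpha-beta receptor and helper genes, 4 were lower: Trac (-2.56), Trbc2 (-1.13), Cd4 (-3.40) and Cd40lg (-3.99), the ligand by which helper T cells act on B cells. The beta constant genes Trbc1 and Trbc2 also share sequence, and the call of Trbc2 was lost without any 1 EV library (edgeR adjusted p 0.0938, 0.0946 and 0.113 without the IL-1a, IL-4 and UT library). Trbc2 stood at 1552 (IL-4), 1796 (IL-1a), 1435 (UT) and 269 (MAPS) CPM in gamma-delta T cells, against 2538, 2697, 2317 and 1454 CPM in Trdc-negative CD3 cells.

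Genes of the IL-17 branch were higher as a group. Of 32 genes listed for this branch, 31 were tested, 20 were higher and 1 lower, with a median log2 fold change of 1.63 against -0.03 over all genes tested, where 2.47% were higher. The list was drawn up with earlier results of these data known. Scart1 had the largest fold change of the list. It stood at 513 (IL-4), 481 (IL-1a), 461 (UT) and 606 (MAPS) CPM in gamma-delta T cells, against 3.98, 1.74, 5.40 and 0.919 CPM in Trdc-negative CD3 cells (log2 fold change 7.42 ± 0.30, edgeR adjusted p = 3.63e-08). Blk, a Src family kinase needed for IL-17 gamma-delta T cells in mice, stood at 144 (IL-4), 148 (IL-1a), 130 (UT) and 316 (MAPS) CPM, against 3.18, 3.83, 7.43 and 0.459 CPM (5.48 ± 0.42, edgeR adjusted p = 9.78e-06). Both genes were higher in 4 of 4 libraries, which the choice of named genes required. Over all 8869 genes tested, 1186 were higher in every library.

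Receptor genes for IL-23, IL-1 and IL-7 were higher too. Il23r, the IL-23 receptor, stood at 46.9 (IL-4), 43.1 (IL-1a), 37.5 (UT) and 80.8 (MAPS) CPM in gamma-delta T cells, against 3.18, 1.04, 6.08 and 1.84 CPM in Trdc-negative CD3 cells (log2 fold change 4.06 ± 0.48, edgeR adjusted p = 2.12e-04). Il1r1, the IL-1 receptor, stood at 75.1 (IL-4), 61.3 (IL-1a), 89.3 (UT) and 67.3 (MAPS) CPM, against 18.3, 8.70, 6.75 and 2.30 CPM (2.98 ± 0.36, edgeR adjusted p = 2.71e-04). Il7r, the receptor of the survival cytokine IL-7, was 1.10 ± 0.16 higher on the log2 scale. All 3 receptor genes were higher in 4 of 4 libraries, as were 1186 of all 8869 genes tested, and Il23r was named partly for that.

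Among transcription factors, Sox13 (3.96) and Zbtb16, the factor PLZF of innate-like T cells (2.67), were higher, while Maf (-0.10, edgeR adjusted p = 0.836) did not pass the test. Batf was the 1 gene of the list that was lower (-1.01), and its call was lost without the IL-1a, IL-4 or UT library (edgeR adjusted p 0.063, 0.145 and 0.111). Actn2, Serpinb1a, Tmem176b and Kcnk1, known from transcriptomes of IL-17 gamma-delta T cells in mice, were higher by 2.81, 2.50, 2.40 and 3.17, and Ramp1, part of the receptor for the neuropeptide CGRP, by 1.63.

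The type 17 cytokines themselves did not pass the test: 4 of 5 listed genes were tested and none was called. Il17a was 2.76 ± 0.82 higher on the log2 scale (edgeR adjusted p = 0.0853) and higher in 4 of 4 libraries, but the ratio between classes was uneven, from 2424 against 1074 CPM in the IL-4 library to 1273 against 0.459 CPM in the MAPS library. Il17f stood at 43.8 (IL-4), 18.2 (IL-1a), 40.4 (UT) and 0 (MAPS) CPM in gamma-delta T cells, against 45.3, 17.8, 6.08 and 0.459 CPM (0.62, edgeR adjusted p = 0.604). Csf2 (0.29, edgeR adjusted p = 0.881) and Il22 (0.98, edgeR adjusted p = 0.715) did not pass either.

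The promoters of Il17a, Il17f and Il23r are shown because all 3 genes belong to the IL-17 branch and Il23r was among the genes higher here. Each line gives the 250 bases before the RefSeq gene start on GRCm38.p6, read along the gene's strand; capitals mark the hexamer AGGTCA or its reverse complement TGACCT, a half-site of nuclear receptors. Il17a lies at chr1:20730655-20730904 (plus strand), Il17f at chr1:20784271-20784520 (minus strand) and Il23r at chr6:67491856-67492105 (minus strand).
Il17a: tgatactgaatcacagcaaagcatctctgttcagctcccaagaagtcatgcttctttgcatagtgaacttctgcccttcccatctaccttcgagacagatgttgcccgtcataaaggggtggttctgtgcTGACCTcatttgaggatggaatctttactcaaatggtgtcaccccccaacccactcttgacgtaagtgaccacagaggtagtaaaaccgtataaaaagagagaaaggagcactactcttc
Il17f: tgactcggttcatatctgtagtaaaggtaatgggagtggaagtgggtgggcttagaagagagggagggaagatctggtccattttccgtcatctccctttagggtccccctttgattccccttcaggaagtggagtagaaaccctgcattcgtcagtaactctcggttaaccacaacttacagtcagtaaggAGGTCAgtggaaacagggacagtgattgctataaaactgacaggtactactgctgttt
Il23r: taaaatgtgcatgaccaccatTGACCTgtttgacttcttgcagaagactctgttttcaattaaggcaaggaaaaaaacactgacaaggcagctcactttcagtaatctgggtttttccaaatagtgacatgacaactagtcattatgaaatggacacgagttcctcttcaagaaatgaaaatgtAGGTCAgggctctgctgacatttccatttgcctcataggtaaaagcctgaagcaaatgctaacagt
The match began 120 bases before the start of Il17a, 58 before Il17f, and 229 and 66 before Il23r. Of 37 type 17 genes listed, 30 had 1 or more windows in the RefSeq table, and 8 of their 40 windows (20.0%) held a match, while 4607 of all 32851 windows of that length (14.0%) did. A match is a description of these letters, not a bound site.

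Genes of the interferon-gamma and cytotoxic branch went the other way. Of 25 genes listed, 23 were tested, 1 was higher and 9 were lower, with a median log2 fold change of -0.50, where 2.45% of all genes were lower. Ifng stood at 62.6 (IL-4), 38.6 (IL-1a), 17.3 (UT) and 6.73 (MAPS) CPM in gamma-delta T cells, against 308, 380, 559 and 246 CPM in Trdc-negative CD3 cells (-3.59 ± 0.34, edgeR adjusted p = 3.63e-05). The granzyme gene Gzmk had a log2 fold change of -3.996. Ifng and Gzmk were named partly for being lower in every library, as 984 of all 8869 genes were. Nkg7, a protein of cytotoxic granules, had a log2 fold change of -1.26, a call lost without the UT library (edgeR adjusted p = 0.0552). Klrk1, the NKG2D receptor, was the 1 gene of this list that was higher (1.62 ± 0.24, edgeR adjusted p = 0.00143).

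The 12 genes with the largest difference in the other direction had varied roles. Ccl20, the ligand of CCR6, had no UMI in 506 gamma-delta T cells, which allows up to 0.593% of them to hold a UMI, against 287 UMIs in Trdc-negative CD3 cells, so that it was at least 15.4-fold lower over the libraries together. By library, Trdc-negative CD3 cells had 20.68 (IL-4), 66.85 (IL-1a), 45.91 (UT) and 0.459 (MAPS) CPM of Ccl20. Trat1, an adaptor of the alpha-beta receptor complex, was at least 12.6-fold lower (0 against 235 UMIs) and the chemokine gene Ccl1 at least 9.46-fold lower (0 against 176 UMIs), while Gins2, a gene of DNA replication, was at least 3.98-fold lower (0 against 74 UMIs), a call lost without the IL-4 library (edgeR adjusted p = 0.096). These bounds take 3 UMIs over the class as the floor. The interferon gene Mx1 (-4.24), the granzyme gene Gzmk and BC147527 (-3.87) followed, the call of BC147527 being lost without the IL-1a or UT library (edgeR adjusted p 0.139 and 0.0593). Themis, Ubash3a, Lck, Cd5, Cd6, Cd2 and Sh2d1a, which act in signalling from the T cell receptor and its partners, were lower by log2 fold changes of -3.71, -3.61, -2.75, -2.54, -3.03, -2.33 and -3.50. Lck, Cd5, Cd6 and Cd2 were the 4 genes called lower of 9 tested on a list of CD3 signalling genes, where 2.45% of all genes were lower. The rest of that list was not called, and 2 of the 9 had a fold change above 0 (median -0.50). The costimulatory genes Cd28 (-3.20), Ctla4 (-1.80), Tnfrsf4 (-2.89) and Tnfrsf18 (-2.08) were lower, whereas the checkpoint receptor gene Pdcd1 was higher: 113 (IL-4), 127 (IL-1a), 144 (UT) and 108 (MAPS) CPM in gamma-delta T cells, against 35.8, 23.7, 31.1 and 41.4 CPM (1.86 ± 0.21, edgeR adjusted p = 1.58e-04).

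Interferon-response genes were lower in gamma-delta T cells as a group: 23 of 23 were tested, none was higher, 8 were lower, and all 23 had a fold change below 0 (median -0.89). Over all 8869 genes tested, 2.45% were lower and 4180 had a fold change above 0 (median -0.03). Of the 23 interferon genes, 15 were lower in every library, against 984 of all 8869 genes. Ifi27l2a, an interferon-induced gene, stood at 616 (IL-4), 404 (IL-1a), 504 (UT) and 33.7 (MAPS) CPM in gamma-delta T cells, against 5635, 2540, 2635 and 1732 CPM in Trdc-negative CD3 cells (-3.23 ± 0.34, edgeR adjusted p = 9.03e-05). Mx1 (-4.24) was among the 8, its call being lost without the UT library (edgeR adjusted p = 0.0675), while Isg15 (-0.89, edgeR adjusted p = 0.0639) did not pass. Of 14 cell cycle genes 1 was lower, and of 12 tested lipid and mitochondrial genes none passed.

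Markers of other cell types were tested in the same fit. None of 9 microglial, 7 oligodendrocyte, 6 astrocyte or 6 endothelial genes passed in either direction, though all 7 oligodendrocyte and all 6 astrocyte genes had a fold change above 0 (medians 0.40 and 0.11). Of 7 monocyte and macrophage genes, 1 was higher and 1 lower, and 1 of 2 neutrophil and 1 of 6 dendritic cell genes were lower. Their part in the results for single genes was not tested.

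**Figure D3:**
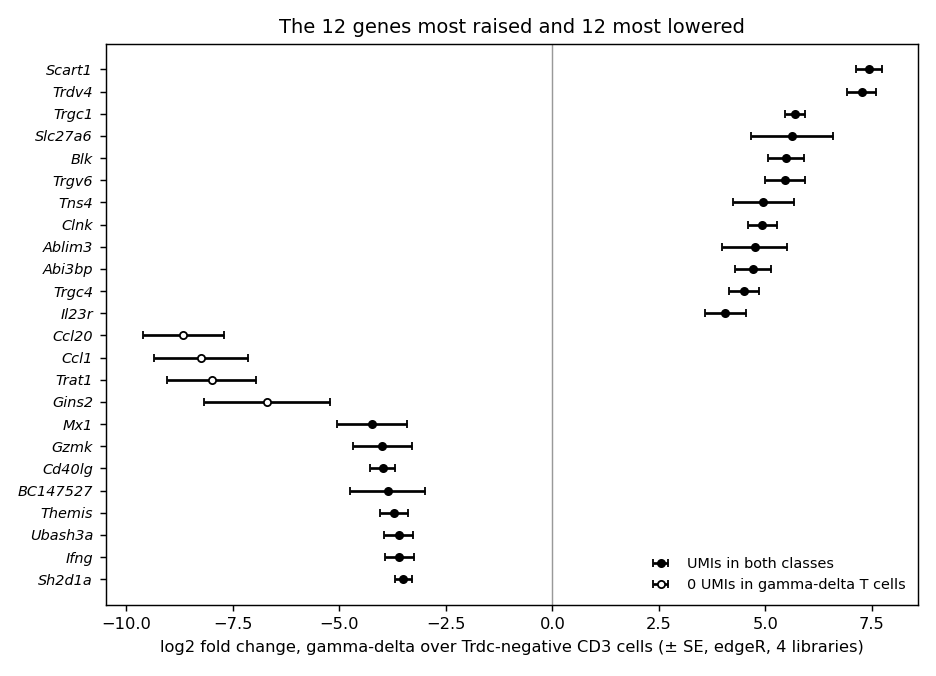
Log2 fold change of gamma-delta T cells over Trdc-negative CD3 cells (x axis, ± SE from edgeR over 4 libraries) for the 12 named genes in each direction. Open points have 0 UMIs in gamma-delta T cells, so their fitted value depends on the prior count and is no estimate of size; Scart1 lies farthest to the right, at 7.42, and Trdv4 lies on the transcript of Trdc, which chose the cells.

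The gamma-delta T cells with Il17a were compared with those without it in the 3 EV libraries, where 335 cells had it and 148 did not; the MAPS library had only 9 cells with Il17a and was left out. The cells with Il17a had median depths of 1911 (IL-4), 1748 (IL-1a) and 2016 (UT) UMIs, against 1916, 1696 and 1786 UMIs in those without. Of 2612 genes tested, 4 were higher (0.153%) and 19 lower (0.727%) in cells with Il17a, 23 in all (0.881%), and 336 (12.9%) had an unadjusted p under 0.05. Genes of the other branch were lower in cells with Il17a: of 25 interferon-gamma and cytotoxic genes, 15 were tested, none was higher and 7 were lower, with a median log2 fold change of -2.69 against 0.00 over all genes. Without the IL-1a library, 5 of these 7 calls were lost. Markers of natural killer cells, against which the rule used only Ncr1 and the Cd3 threshold, moved with these genes. Their list of 8 genes summed to 293 (IL-4), 0 (IL-1a) and 0 (UT) CPM in cells with Il17a, against 864, 151 and 592 CPM in cells without. All 8 were at 0 in cells with Il17a of the IL-1a and UT libraries, and in cells without Il17a 3 of the 8 were at 0 in each library, Klra8 in all 3. Of the 8, 3 were tested and none passed (median -4.12). The part of natural killer cells in the result was not tested.

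Nkg7 stood at 39.7 (IL-4), 6.64 (IL-1a) and 7.34 (UT) CPM in cells with Il17a, against 1093, 925 and 646 CPM in cells without (-5.82 ± 0.35, edgeR adjusted p = 2.91e-05). It was present in 6 of 335 cells with Il17a and in 42 of 148 without. Xcl1, the chemokine lymphotactin, had no UMI in the 335 cells with Il17a, which allows up to 0.896% of them to hold a UMI, against 110 UMIs in cells without, and was at least 85.7-fold lower. These 2 calls passed in all 12 alternative settings.

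Ccl5, another chemokine of cytotoxic cells, stood at 283 (IL-4), 106 (IL-1a) and 69.7 (UT) CPM in cells with Il17a, against 1262, 3888 and 3417 CPM in those without (-4.32 ± 0.55, edgeR adjusted p = 0.00477). Ifng stood at 19.8 (IL-4), 6.64 (IL-1a) and 3.67 (UT) CPM, against 136, 108 and 67.3 CPM (-3.44 ± 0.59, edgeR adjusted p = 0.0245), and 5 of 506 gamma-delta T cells held Il17a and Ifng together. Klrd1, the CD94 receptor of natural killer cells, had -3.96, and Ly6c2 was at least 38.9-fold lower (0 against 50 UMIs). These genes were named partly for being lower in all 3 libraries. Without the IL-1a library, which holds the most cells, only 1 higher and 2 lower genes passed. Ccl5 (edgeR adjusted p = 0.346), Ifng (0.386), Klrd1 (0.144) and Ly6c2 (0.204) were then lost. Without the UT library, which holds 35 of the 148 cells without Il17a, 44 were higher and 70 lower.

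In the other direction Areg, the gene of the tissue repair factor amphiregulin, stood at 903 (IL-4), 860 (IL-1a) and 774 (UT) CPM in cells with Il17a, against 220, 208 and 350 CPM in cells without (1.69 ± 0.21, edgeR adjusted p = 0.00477). Cells with an Areg UMI were 14 of 87 (IL-4), 36 of 136 (IL-1a) and 27 of 112 (UT) with Il17a, against 4 of 47, 6 of 66 and 8 of 35 without. The call passed in 8 of 12 alternative settings. It was lost without the IL-1a library (log2 fold change 1.558, edgeR adjusted p = 0.341), with doublets removed (1.293, 0.165), with a Trgc UMI required in both groups (1.285, 0.1) and with the MAPS library kept (1.686, 0.0517), so the difference stayed above 0 in each. The other higher genes included C1qc and Apoe, markers of microglia and macrophages. Summed over the oligodendrocyte list, cells with Il17a had 456 (IL-4), 2166 (IL-1a) and 1731 (UT) CPM, against 195, 983 and 377 CPM in cells without, and over the monocyte and macrophage list 21920, 7163 and 5576 CPM, against 13270, 4778 and 2489 CPM. The part of these other cells' RNA in the result was not tested.

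The IL-17 branch list separated the groups less. Of its 32 genes 25 were tested, none passed in either direction, and 23 had a fold change above 0 (median 0.55). Scart1 stood at 580 (IL-4), 578 (IL-1a) and 473 (UT) CPM, against 398, 273 and 417 CPM (0.55 ± 0.21, edgeR adjusted p = 0.282). Scart1 was thus found in both groups, in 71.3% (IL-4), 71.3% (IL-1a) and 64.3% (UT) of cells with Il17a, against 51.1%, 39.4% and 45.7% of those without.

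**Figure D4:**
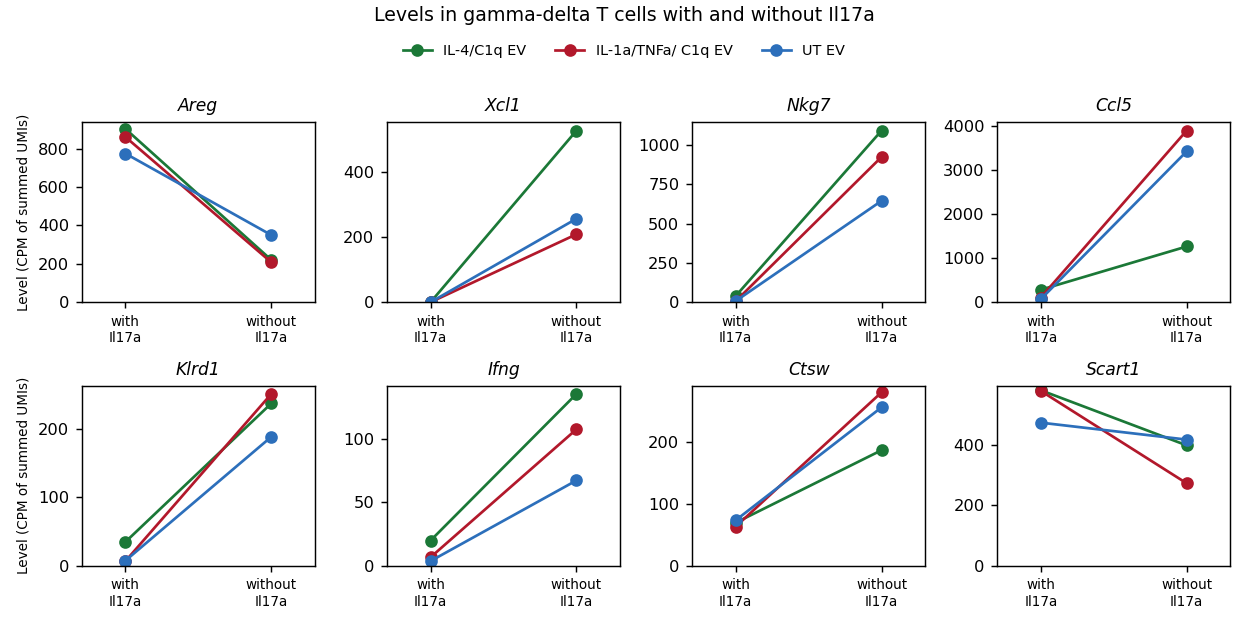
Levels in CPM (linear axes from 0) of 8 genes in gamma-delta T cells with Il17a (left in each panel) and without (right), 1 line for each of the 3 EV libraries. Nkg7, Ccl5, Xcl1, Klrd1, Ctsw and Ifng are lower and Areg is higher in cells with Il17a in each library; Scart1 lies higher too but did not pass the test.

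A further comparison, added after the data were seen, set cells chosen for the same cytokine side by side: gamma-delta T cells with Il17a against Trdc-negative CD3 cells with Il17a, 335 and 402 cells in the 3 EV libraries. Of 3402 genes tested, 90 were higher (2.65%) and 83 lower (2.44%), 173 in all (5.09%), and 555 (16.3%) had an unadjusted p under 0.05; without the UT library 48 were higher and 42 lower. Il17a itself, which chose both groups, stood at 3844 (IL-4), 8017 (IL-1a) and 7234 (UT) CPM in the gamma-delta T cells, against 6576, 7806 and 5773 CPM. Il17f (-1.43 ± 0.43, edgeR adjusted p = 0.121) did not pass the test. Of the 32 genes of the IL-17 branch 26 were tested, 11 were higher and none lower, with a median log2 fold change of 0.82 against 0.01 over all genes. Of these 11 calls, those of S100a4, Tmem176a, Kcnk1 and Ly6g5b were lost without the UT library (edgeR adjusted p 0.132, 0.131, 0.112 and 0.114). Those of Il7r and Ly6g5b were lost without the IL-4 library (edgeR adjusted p 0.115 and 0.0654), and those of Tmem176a and Kcnk1 without the IL-1a library (edgeR adjusted p 0.0557 and 0.0875).

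Scart1 was 5.33 ± 0.48 higher on the log2 scale (edgeR adjusted p = 4.47e-04), Blk 3.84 ± 0.43, Clnk, an adaptor of immune receptor signalling, 4.34 ± 0.55, and Klrk1 3.78 ± 0.57. Areg was higher here too: 903 (IL-4), 860 (IL-1a) and 774 (UT) CPM in the gamma-delta T cells, against 331, 314 and 493 CPM in Trdc-negative CD3 cells with Il17a (1.18 ± 0.18, edgeR adjusted p = 0.00742), a call that passed in all 8 alternative settings. Pdcd1 stood at 134 (IL-4), 153 (IL-1a) and 136 (UT) CPM, against 58.5, 33.2 and 52.1 CPM (1.66 ± 0.27, edgeR adjusted p = 0.00836). Calca, the gene of the neuropeptide CGRP and of calcitonin, was present at 64.5 (IL-4), 116 (IL-1a) and 36.7 (UT) CPM, against 0, 12.2 and 0 CPM (3.66 ± 0.57, edgeR adjusted p = 0.00752). For these 3 genes, every gamma-delta value was above every Trdc-negative one, but how many of all genes tested do the same was not counted.

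Cd40lg, Ifng and Ccl20 were among the genes lower in the gamma-delta T cells with Il17a. Cd40lg stood at 0 (IL-4), 9.97 (IL-1a) and 3.67 (UT) CPM, against 292, 338 and 446 CPM (-6.04 ± 0.37, edgeR adjusted p = 6.46e-05). Ifng stood at 19.8 (IL-4), 6.64 (IL-1a) and 3.67 (UT) CPM, against 565, 581 and 460 CPM (-5.82 ± 0.32, edgeR adjusted p = 3.03e-05). Ccl20 had 0 against 207 UMIs and was at least 54.1-fold lower over the EV libraries together. In Trdc-negative CD3 cells with Il17a it stood at only 4.87 CPM in the IL-4 library, against 244 (IL-1a) and 313 (UT). Of the 25 interferon-gamma and cytotoxic genes 9 were tested, of which Ifng and Cxcr3 were lower and Klrk1 and Gzmb higher, the call of Gzmb being lost without the UT library (edgeR adjusted p = 0.0611). Of 8 tested costimulatory and checkpoint genes, Ctla4 (-2.18), Tnfrsf4 (-1.82), Tnfrsf18 (-1.63) and Cd28 (-4.20) were lower and Pdcd1 was higher. Tnfsf11, the gene of RANKL, and Tnfsf8, the CD30 ligand, were lower by log2 fold changes of -2.90 and -3.96.

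Within gamma-delta T cells, the libraries were compared gene by gene as ratios of CPM with exact intervals, for counting error only. A gene counted as higher or lower when the whole interval lay beyond 1.5-fold and at least 20 UMIs were present in the pair. The IL-4 library over the UT library gave 49 higher (1.3%) and 56 lower (1.49%) of 3756 genes, and over the IL-1a library 51 higher (1.29%) and 69 lower (1.75%) of 3948. The IL-1a library over the UT library gave 24 higher (0.579%) and 30 lower (0.723%) of 4147. Scart1 varied little, with ratios of 1.11 (0.889 to 1.39) for the IL-4 library over the UT library, 1.07 (0.864 to 1.31) over the IL-1a library, and 1.04 (0.846 to 1.29) for the IL-1a library over the UT library.

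Interferon-response genes were higher in gamma-delta T cells of the IL-4 library. Of 14 interferon genes with enough UMIs, 10 were higher than in the IL-1a library and none lower (median ratio 3.03), and 5 were higher than in the UT library (median ratio 2.16); all 14 ratios were above 1 in both pairs. Isg15, a ubiquitin-like protein induced by interferon, stood at 538 CPM in gamma-delta T cells of the IL-4 library, 195 in the IL-1a library, 228 in the UT library and 20.2 in the MAPS library. Its ratio was 2.75 (2.11 to 3.61) for the IL-4 library over the IL-1a library and 2.36 (1.80 to 3.12) over the UT library. Bst2, a membrane protein that tethers viruses, stood at 832 (IL-4), 266 (IL-1a) and 303 (UT) CPM and was present in 89 of 134, 69 of 202 and 65 of 147 cells. Ifit3, a cytosolic interferon-induced protein whose reads can be shared with its near copy Ifit3b, stood at 116 (IL-4), 13.6 (IL-1a) and 28.8 (UT) CPM but in only 11, 3 and 2 cells.

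Summed over the 23 interferon genes, gamma-delta T cells had 4333 (IL-4), 1621 (IL-1a), 1986 (UT) and 687 (MAPS) CPM, with medians of 5, 2, 2 and 3 UMIs per cell. Trdc-negative CD3 cells had 10120 (IL-4), 4402 (IL-1a), 5012 (UT) and 4090 (MAPS) CPM, so the difference was not confined to gamma-delta T cells. In them, 12 of the same 14 genes were higher in the IL-4 library than in the IL-1a library, and 7 than in the UT library. The share of all genes called in this class was not counted. Its larger UMI sum, 1257074 against 319654 in the IL-4 library, makes a call easier. Without the cell with the most UMIs of each gene, 10 genes were higher over the IL-1a library and 7 over the UT library in gamma-delta T cells. Markers of other cells moved too: the monocyte and macrophage list summed to 18720 (IL-4), 6408 (IL-1a), 4914 (UT) and 3738 (MAPS) CPM in gamma-delta T cells, and the microglial list to 3200.0 (IL-4), 1912 (IL-1a), 1332 (UT) and 1010.0 (MAPS) CPM. In Trdc-negative CD3 cells the monocyte and macrophage list summed to 8758 (IL-4), 8265 (IL-1a) and 7615 (UT) CPM, and the neutrophil list to 2099 (IL-4), 213 (IL-1a) and 27.0 (UT) CPM. The neutrophil list summed to 31.3 (IL-4), 116 (IL-1a) and 8.65 (UT) CPM in gamma-delta T cells. Among gamma-delta T cells, 5 of 7 measured microglial and 3 of 4 dendritic cell genes were also higher in the IL-4 library than in the UT library, while 5 of 7 oligodendrocyte and 3 of 4 cell cycle genes were lower. Over the IL-1a library, 1 of 8 microglial genes was higher and 6 of 7 oligodendrocyte genes were lower. The part of these other cells' RNA in the interferon result was not tested.

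The promoters of Ifit3 (chr19:34583279-34583528, plus strand) and Isg15 (chr4:156200819-156201068, minus strand) are shown because both genes were higher in gamma-delta T cells of the IL-4 library. Each line is the 250 bases before the RefSeq gene start on GRCm38.p6, read along the gene's strand; capitals mark GAAA, any 2 bases and GAAA, or the reverse complement TTTC, any 2 bases and TTTC, the core of the interferon-stimulated response element, with overlapping matches run together.
Ifit3: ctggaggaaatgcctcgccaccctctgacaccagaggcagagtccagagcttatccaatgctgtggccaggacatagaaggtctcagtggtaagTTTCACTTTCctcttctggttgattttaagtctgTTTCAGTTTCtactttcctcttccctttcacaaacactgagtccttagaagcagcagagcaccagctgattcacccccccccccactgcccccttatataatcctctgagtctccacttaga
Isg15: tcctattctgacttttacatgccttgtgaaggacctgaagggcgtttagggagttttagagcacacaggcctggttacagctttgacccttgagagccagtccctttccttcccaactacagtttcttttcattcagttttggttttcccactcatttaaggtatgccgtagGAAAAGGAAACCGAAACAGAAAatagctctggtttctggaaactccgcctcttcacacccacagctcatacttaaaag
Matches began 156 and 122 bases before the start of Ifit3, and 78, 72 and 66 bases before that of Isg15. Of the 23 interferon genes, 17 had 1 or more windows in the table, and 10 of their 21 windows (47.6%) held a match, while 978 of all 32851 windows (2.98%) did. A match is again a description of these letters only.

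**Figure D5:**
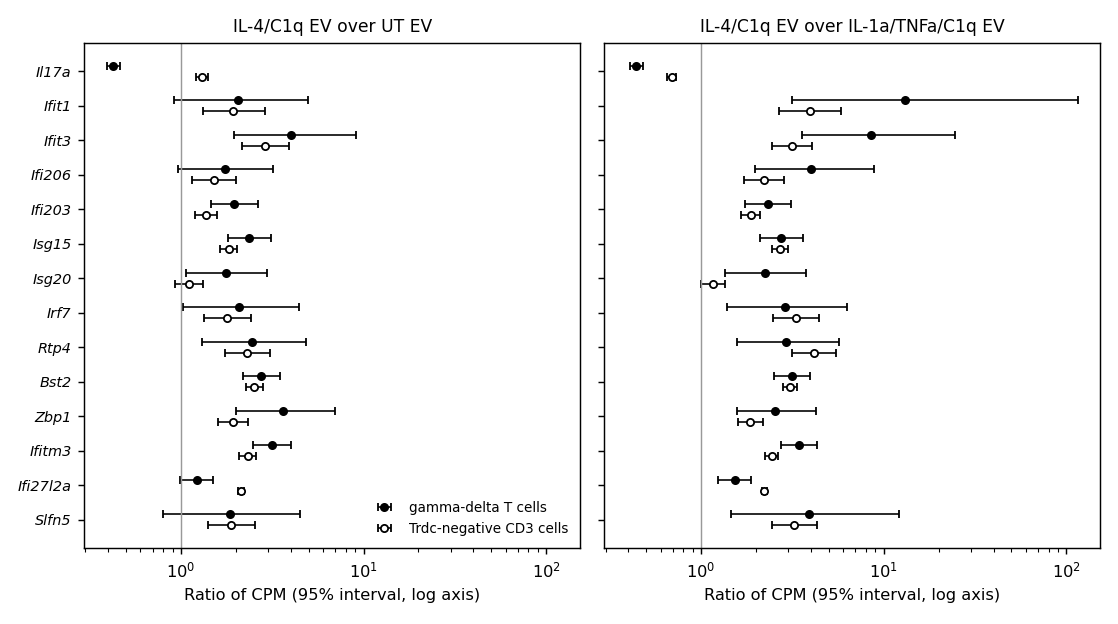
Ratio of CPM (log axis, 95% intervals for counting error) of the IL-4 library over the UT library (left) and over the IL-1a library (right) for Il17a and 13 of the 14 measured interferon genes, in gamma-delta T cells (filled) and Trdc-negative CD3 cells (open). All 13 interferon ratios shown lie above 1 in both classes, whereas Il17a in gamma-delta T cells lies at 0.427 and 0.443.

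Cytotoxic genes differed between the EV libraries on few cells. Nkg7 stood at 429 (IL-4), 297 (IL-1a) and 144 (UT) CPM in 14, 26 and 8 gamma-delta T cells, a ratio of 2.97 (2.14 to 4.20) for the IL-4 library over the UT library. Xcl1 stood at 194 (IL-4), 65.8 (IL-1a) and 54.8 (UT) CPM in 9, 10 and 5 cells. Ccl5 stood at 644 (IL-4), 1303 (IL-1a) and 787 (UT) CPM, in 18, 45 and 15 cells, with a ratio of 0.494 (0.420 to 0.581) for the IL-4 library over the IL-1a library. Il22 had no UMI in 134 gamma-delta T cells of the IL-4 library, which allows up to 2.24% of them to hold a UMI, against 28 UMIs in the IL-1a library, of which 21 were in 1 cell.

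Areg was level over the EV libraries and not detected in those of the MAPS library. It stood at 651 (IL-4), 654 (IL-1a) and 683 (UT) CPM in 18, 42 and 35 gamma-delta T cells, against no UMI in 23 cells of the MAPS library, which allows up to 13% of them to hold a UMI. Such limits concern cells with a UMI, and cells that express a gene can have none at this depth. In Trdc-negative CD3 cells it stood at 396 (IL-4), 242 (IL-1a), 356 (UT) and 16.1 (MAPS) CPM, with ratios over the MAPS library of 24.6 (17.5 to 35.8) for the IL-4 library, 15.03 (10.7 to 21.8) for the IL-1a library and 22.1 (15.7 to 32.1) for the UT library. Hilpda, a lipid droplet protein induced by low oxygen, was also higher than in the MAPS library, with 341 UMIs in 98 gamma-delta T cells of the UT library, against 4 UMIs in 3 cells of the MAPS library. S100a4, a calcium-binding protein of motile cells, stood at 2437 (IL-4), 1664 (IL-1a), 2018 (UT) and 350.2 (MAPS) CPM. Rn18s-rs5, a ribosomal RNA gene, stood at 32440 (UT) against 2101 (MAPS) CPM, in all 147 and all 23 gamma-delta T cells. Its ratio was 15.44 (13.8 to 17.33) for the UT library over the MAPS library. In Trdc-negative CD3 cells the interval of that ratio was 10.22 to 10.78. The part of technical differences between libraries in the values of these genes was not tested.

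Several genes with the largest ratios between libraries rested on single cells. In the MAPS library 10914 of 11112 Ttr UMIs were in 1 gamma-delta T cell, and 1064 of 1104 Enpp2 UMIs were in 1, both genes of the choroid plexus. In the IL-4 library 1 cell held all 87 Npy UMIs, 1 held 172 of 178 Fabp7 UMIs, and 1 held 662 of 1039 UMIs of Lyz2, a macrophage gene. In the UT library 25 of 26 Ube2c UMIs were in 1 cell, and 26 of 27 Cenpf UMIs were in 1, both genes of dividing cells. For the UT library over the MAPS library, 379 genes were higher (10.4%) and 511 lower (14.0%) of 3645 at total-UMI scaling, but 905 and 164 after TMM scaling, which shifts every log2 ratio of this pair by 0.75. The IL-4 library over the MAPS library gave 378 higher (11.2%) and 503 lower (14.9%) of 3366 genes, but 891 and 177 after TMM scaling (a shift of 0.85). The IL-1a library over the MAPS library gave 442 higher (11.4%) and 706 lower (18.3%) of 3867, but 1021 and 205 after TMM scaling (a shift of 0.86).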

How the data were processed

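The deposited files are filtered 10x Genomics matrices of whole-number UMI counts per gene and cell, 1 per library, made with Cell Ranger 8.0.1 per the file headers. By contrast, version 7.0.0 of Cell Ranger stands in the submitters' processing notes, beside GRCm39, Seurat 4.1.0 and bcl2fastq 5.0.1. Enzymes freed the cells from the tissue, and dead cells were taken out with beads, per the labels' protocols. No cell annotation was used, so the cells were chosen by marker UMIs. The members, gene lists and tests were chosen with earlier results of these data known.

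Counts were read with Python 3.11.15 (scanpy 1.11.5, pandas 2.3.3, scipy 1.17.1, numpy 2.4.6), and figures were drawn with matplotlib 3.10.9. UMIs were summed per library and class and tested with edgeR 4.0.16 in R 4.3.3, by the quasi-likelihood test with TMM factors, the library as a block and Benjamini-Hochberg adjustment; the block comes from the design, since both classes of a pair are from the same library. DESeq2 1.42.0 was an alternative. The p-values measure the spread of a class difference between libraries, each from an unstated number of animals. These were all 4 libraries for the comparison with Trdc-negative CD3 cells and the 3 EV libraries for both comparisons of Il17a cells. The comparison of both kinds of Il17a cells was added after the data were seen. A class needed at least 10 cells in a library, which left the MAPS library out of the comparisons of Il17a cells. Libraries were compared by ratios of CPM with 95% intervals: conditional binomial for ratios, Clopper-Pearson for shares. A count of 0 was read as at most 3 counts. Intervals and limits cover counting error only.

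Named genes were the 12 with the largest fold change in each direction among those past an adjusted p of 0.05 and changed the same way in every library, the 3 higher and 3 lower per library comparison by interval bound, and members of the lists. On simulated data, edgeR recovered 83.1% of 4-fold and 23.8% of 2-fold changes in the comparison with Trdc-negative cells, 88% and 20.9% in that of cells with and without Il17a, and 92% and 34.1% in that of both kinds of Il17a cells. The simulation gave every gene the same fixed dispersion and changed only genes above a floor of summed UMIs. These rates need not hold for the sparser or more variable genes of the real data. The libraries shared 41 to 63 barcodes per pair. Scrublet marked 3.63% to 5.23% of cells per library as doublets; they were removed only as an alternative. Promoter sequences come from RefSeq. A few genes of the lists are counted in them but not reported here by name.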

Additional observations from a re-analysis of the deposited data

Results flagged for a closer look

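In 4 genes the ratio of gamma-delta T cells to Trdc-negative CD3 cells ran one way in the MAPS library and the other way in the 3 EV libraries. The MAPS library is 1 library with 23 gamma-delta T cells, and the difference was not tested in any of the 4. S100a4, a calcium-binding protein, had a ratio of 2.395 (IL-4), 2.362 (IL-1a) and 3.295 (UT), against 0.6981 in the MAPS library, where it rested on 52 UMIs in 16 cells. Fabp5, a fatty acid binding protein, had 0.7729 (IL-4), 0.7843 (IL-1a) and 0.7445 (UT), against 2.358 in the MAPS library, with 22 of 37 UMIs in 1 cell. Tubb5, a tubulin, had 0.6727 (IL-4), 0.7386 (IL-1a) and 0.7116 (UT), against 1.408 in the MAPS library, with 93 of 120 UMIs in 1 cell. Pclaf, a gene of DNA replication, had no UMI in gamma-delta T cells of the EV libraries, against a ratio of 1.725 in the MAPS library, with 21 of 22 UMIs in 1 cell.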

How the results depend on the processing

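The share of gamma-delta T cells in the IL-1a library was 1.148% with a Trgc UMI required as well and 1.168% without cells holding Trac. With CD3 cells as the denominator, the ratio of the IL-4 library to the IL-1a library turned to 1.258, and that of the IL-1a library to the UT library was 0.7197. With doublets removed, gamma-delta T cells held 37.11% (IL-4), 33.81% (IL-1a) and 85.14% (MAPS) of Il17a UMIs.

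In the comparison with Trdc-negative CD3 cells, leaving out 1 library gave 100 to 322 genes higher and 104 to 326 lower, no filter gave 518 lower, and no replicate block gave 54 higher and 35 lower. For cells with and without Il17a, leaving out 1 library gave 1 to 44 higher and 2 to 70 lower. Doublets removed gave 0 higher and 11 lower, thinning 13 higher, a Trgc UMI in both classes 1 and 5, DESeq2 1 and 10, the MAPS library kept 0 higher, no filter 56 and 53, and total UMIs 2 higher. No replicate block gave 1 higher and 13 lower. For both kinds of Il17a cells, DESeq2 gave 53 higher and 45 lower, leaving out 1 library 48 to 76 higher and 42 to 74 lower, no filter 159 lower, and no replicate block 69 and 65.

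Without the cell with most UMIs of each gene, the IL-4 library over the IL-1a library had 32 genes higher, the IL-1a library over the UT library 19 lower, the UT library over the MAPS library 596 higher and 203 lower, the IL-4 library over the MAPS library 245 lower, and the IL-1a library over the MAPS library 689 higher and 333 lower. A floor of 10 UMIs gave 58 lower for the IL-1a library over the UT library, and 803 (UT), 910 (IL-4) and 1181 (IL-1a) lower over the MAPS library. TMM factors gave 905 higher and 164 lower (UT), 891 and 177 (IL-4), and 1021 and 205 (IL-1a) over the MAPS library. With doublets removed, the IL-4 library over the IL-1a library had 39 lower. The other 186 alternative values of shares, ratios and counts stayed within 1.5 times or within their interval. The causes of these changes were not tested. No paired analysis was possible because each group is 1 library, for the comparisons between libraries. With 23 gamma-delta T cells, the MAPS library limits every comparison with it.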
